A study of Mus musculus with 12 samples.

Results

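The genes described here encode the enzymes that make cholesterol and fatty acids, with the proteins that sense and carry sterol. They are 31 gene symbols chosen by name out of the 55228 in the table. Of these, 18 encode cholesterol synthesis enzymes, 5 sterol control and transport proteins, and 8 enzymes of fatty acid synthesis and desaturation. Levels are in TPM, an abundance scaled to transcript length and to the library total. At a mean of 1 TPM or more over the 12 libraries, 30 of the 31 entered the test, among 15043 genes in all. Scd1, a stearoyl-CoA desaturase, was left out of the test at 0.473 to 1.59 TPM.

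RNA was sequenced from regulatory T cells (Tregs) of NOD.Foxp3-GFP mice, a diabetes-prone strain that carries a GFP reporter of Foxp3, in 4 groups of 3 libraries. CD4+ lymph node cells pooled from 16 mice were divided into 3 parts, each of which was sorted for GFP+CD25+ cells on its own machine, activated separately, transduced on day 2, washed on day 4, kept for 5 more days and sorted for the Thy1.1 reporter on day 9. EV no IL-2 and EV+IL-2 Tregs carried the empty retroviral vector and differed in whether IL-2 was left out of or kept in the medium, and 1G12t and 3A10t Tregs carried a vector that joins the orthoIL-2 variant 1G12 or 3A10 to orthoIL-2Rβ through a CD25 linker and had no IL-2 added after the wash. The 3 replicates of a group are thus cultures of one pool of cells, and p-values measure the spread between these cultures, not between animals. Every group carries a retroviral vector with the Thy1.1 reporter, to which the tethered groups add the tether.

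Cholesterol is built from acetyl-CoA through mevalonate, isoprenoid units and squalene, and the isoprenoids made on the way are also attached to proteins and used for ubiquinone and dolichol. Fatty acids are built from the same acetyl-CoA, then lengthened by elongases and given double bonds by desaturases. Transcription of both pathways is driven by the SREBP factors, which Scap escorts out of the endoplasmic reticulum when sterol is low and Insig proteins retain there when it is high. T cells that grow and divide raise membrane lipid synthesis, and in Tregs the mevalonate branch is known to be needed for suppressive function.

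Levels are given as TPM divided by a scaling factor for each library, which lay between 0.846 and 1.08, and the number of reads behind a TPM is unknown. Differences are on the log2(TPM + 1) scale, on which the change of a weakly expressed gene comes out too small, and a gene was called with limma at a Benjamini-Hochberg adjusted p under 0.05 over all 15043 genes. Within a group, the median SD of the 30 members was 0.20 for 3A10t, 0.18 for 1G12t, 0.11 for EV+IL-2 and 0.10 for EV no IL-2. Foxp3 was at 488 to 515 TPM in the 9 libraries of the other groups and at 373 to 468 in 3A10t, and Il2, which the tethers encode, was at 13.1 to 30.0 TPM in the tethered Tregs and at 0.183 to 0.496 with the empty vector. Thy1, which the reporter of every vector encodes, was at 3141 to 3511 TPM with the empty vector and at 183 to 263 TPM with a tether. Of the markers of other cell types, Cst3 was at 444 to 770 TPM and Cd79b at 6.82 to 13.4 TPM, Cd8b1 reached 5.79 TPM, Cd79a 2.25 TPM and Csf1r 1.75 TPM, and Lyz2, S100a8, S100a9, Ms4a1 and Cd8a stayed at or below 0.974 TPM. Of the 31 members, 11 share annotated exon bases with another gene, the largest shares being 26.7% for Fdps, 18.3% for Fdft1 with Ctsb on the opposite strand and 13.2% for Scap, and reads of such pairs may not be told apart. In these bulk samples fewer cells of a type and less RNA per cell cannot be told apart.

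The promoters are described first, although they were read after the tests. The pathway is known for a shared regulatory sequence, the sterol regulatory element bound by the SREBP factors, beside boxes for NF-Y and Sp1. RefSeq start sites on GRCm38.p6 gave a window for 24 of the 31 members, from 250 bases before to 50 bases after the start, and 4 of the 7 genes called in EV+IL-2 Tregs below have one. Letters were searched on both strands as TCACNCCAC for the sterol regulatory element, CCAAT for the NF-Y box and GGGCGG for the Sp1 box, and no match of one motif overlaps a match of another in the windows shown. The sterol regulatory element letters were found in 1 of the 24 members, Hmgcs1, at positions -137 to -129 from the start, against 1.44% of 27025 genes with a window. Sites that depart from these exact letters were not searched for, so a window without a match may still hold such a site. The CCAAT letters stood in 19 of 24 members (79.2%) against 41.1% of genes, and GGGCGG in 20 of 24 (83.3%) against 38.2%. The genes set beside the members are all those with a window, whether or not these cells express them. Shares among expressed genes were not taken, so the excess cannot be ascribed to lipid genes. The 250 bases before the start are shown for Hmgcs1, which holds the element, and for Elovl6, Fasn, Idi1 and Fads2, which were chosen after their values were seen because they rose with IL-2. They read 5′ to 3′ on the strand of the gene, and capitals mark the sterol regulatory element and the CCAAT box or its reverse ATTGG.
Hmgcs1, chr13:119690101-119690350, plus strand: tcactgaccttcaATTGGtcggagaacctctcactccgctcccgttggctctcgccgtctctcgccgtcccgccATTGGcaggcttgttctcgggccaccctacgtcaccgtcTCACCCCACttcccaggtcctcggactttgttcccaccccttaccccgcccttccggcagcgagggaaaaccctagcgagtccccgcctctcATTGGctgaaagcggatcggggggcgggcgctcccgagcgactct
Elovl6, chr3:129532136-129532385, plus strand: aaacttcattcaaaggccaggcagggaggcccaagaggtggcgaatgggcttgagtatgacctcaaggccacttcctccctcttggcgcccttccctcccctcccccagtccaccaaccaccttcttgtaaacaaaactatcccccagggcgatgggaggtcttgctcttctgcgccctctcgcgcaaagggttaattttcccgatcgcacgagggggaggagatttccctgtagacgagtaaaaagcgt
Fasn, chr11:120824548-120824797, minus strand: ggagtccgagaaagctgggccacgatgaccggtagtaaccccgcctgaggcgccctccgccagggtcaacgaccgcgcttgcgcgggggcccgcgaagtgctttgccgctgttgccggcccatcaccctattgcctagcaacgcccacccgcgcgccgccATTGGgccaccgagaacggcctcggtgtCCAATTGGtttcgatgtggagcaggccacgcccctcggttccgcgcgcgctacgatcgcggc
Idi1, chr13:8885356-8885605, plus strand: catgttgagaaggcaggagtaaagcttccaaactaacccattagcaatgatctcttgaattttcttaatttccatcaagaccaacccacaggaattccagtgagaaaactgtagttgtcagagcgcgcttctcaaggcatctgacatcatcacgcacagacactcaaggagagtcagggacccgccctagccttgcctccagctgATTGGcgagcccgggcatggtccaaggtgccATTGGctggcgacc
Fads2, chr19:10101504-10101753, minus strand: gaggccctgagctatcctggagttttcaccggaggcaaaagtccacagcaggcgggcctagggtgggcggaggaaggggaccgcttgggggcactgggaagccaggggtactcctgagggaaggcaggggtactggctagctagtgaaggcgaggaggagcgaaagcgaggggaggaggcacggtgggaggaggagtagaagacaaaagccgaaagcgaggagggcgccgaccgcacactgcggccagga

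Elovl6, the member with the widest difference with IL-2, held none of the motifs in its window, and neither did Fads2 apart from GGGCGG. The Fasn window held CCAAT 3 times, with a pair of matches that overlap in CCAATTGG, and the Idi1 window held it 2 times. The letters describe these windows and say nothing of which factor was bound.

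The comparison of EV+IL-2 with EV no IL-2 Tregs asked which lipid genes followed soluble IL-2. The fatty acid genes Elovl6, Fasn and Scd2 rose, Elovl6 by the most of the members tested, and so did Idi1 and Fdps of the isoprenoid branch and the sterol carrier Stard4. Of the 30 members tested, 7 were higher (23.3%) and 0 lower in EV+IL-2, against 8.17% of all genes higher and 5.14% lower. One of the 7, Fads2, reached the mean of 1 TPM needed for the test through EV+IL-2 alone, with a mean of 0.624 TPM over the other groups, and so had to differ. Without it the count was 6 of 29. By role the 7 were 4 of the 7 fatty acid genes tested (3 of 6 without Fads2), 2 of the 18 cholesterol synthesis enzymes and 1 of the 5 control and transport genes. No member passed as lower with limma, and none had an unadjusted p under 0.05 in that direction, against 12.4% of all genes, while 14 did as higher, against 13.8%. Fads2 is counted among the 14. At the threshold the authors used, an unadjusted p under 0.01 with a log2 fold change beyond 0.25, the same 7 genes passed, against 8.99% of all genes higher and 6.12% lower.

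Fasn is the synthase that assembles palmitate, and Elovl6 is the elongase that carries it on to stearate. Elovl6 was at 18.7, 20.4 and 22.7 TPM in the EV no IL-2 libraries and at 84.2, 81.4 and 83.5 in EV+IL-2, so that the lowest library with IL-2 was far above the highest without. The difference was 1.96 (SE 0.11, adjusted p = 3.53e-06 with limma). For Fasn the levels were 24.2, 23.7 and 24.0 TPM without IL-2 and 39.8, 39.1 and 40.6 TPM with it, a difference of 0.71 (SE 0.084, adjusted p = 0.000254 with limma). The groups did not overlap for either gene, and the replicates of each lay close together. Acly and Acaca, which make cytosolic acetyl-CoA and malonyl-CoA ahead of Fasn, were not called. Acly was at 123, 140 and 139 TPM without IL-2 and at 143, 142 and 125 TPM with it, so the groups overlapped, and Acaca stayed low, at 1.71 to 1.86 TPM without and 1.66 to 2.04 TPM with IL-2.

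Scd2, a stearoyl-CoA desaturase, was at 3.36, 4.13 and 5.01 TPM in EV no IL-2 and at 9.94, 8.01 and 8.39 TPM in EV+IL-2. Its difference of 0.93 (SE 0.14, adjusted p = 0.0011 with limma) left the groups apart. Fads2, the delta-6 desaturase of polyunsaturated fatty acids, went from 0.546, 0.413 and 0.356 TPM to 3.52, 2.48 and 2.22 TPM, a difference of 1.36 that is given as a description, since the filter let the gene in through its EV+IL-2 level. Both genes are low, and their differences depended on the pseudocount of 1. At pseudocounts of 0.1 and 5 they were 1.07 and 0.59 for Scd2, which was still called at each. For Fads2 they were 2.39 and 0.51, again given as a description. Fads1, the delta-5 desaturase that acts after Fads2, was at 9.34 to 10.8 TPM without and 9.19 to 10.9 TPM with IL-2, and the groups overlapped. Scd1, close in sequence to Scd2, had a mean of 0.814 TPM without and 1.16 TPM with IL-2, and how the authors' estimate divided reads between the pair is not known.

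**Figure D1:**
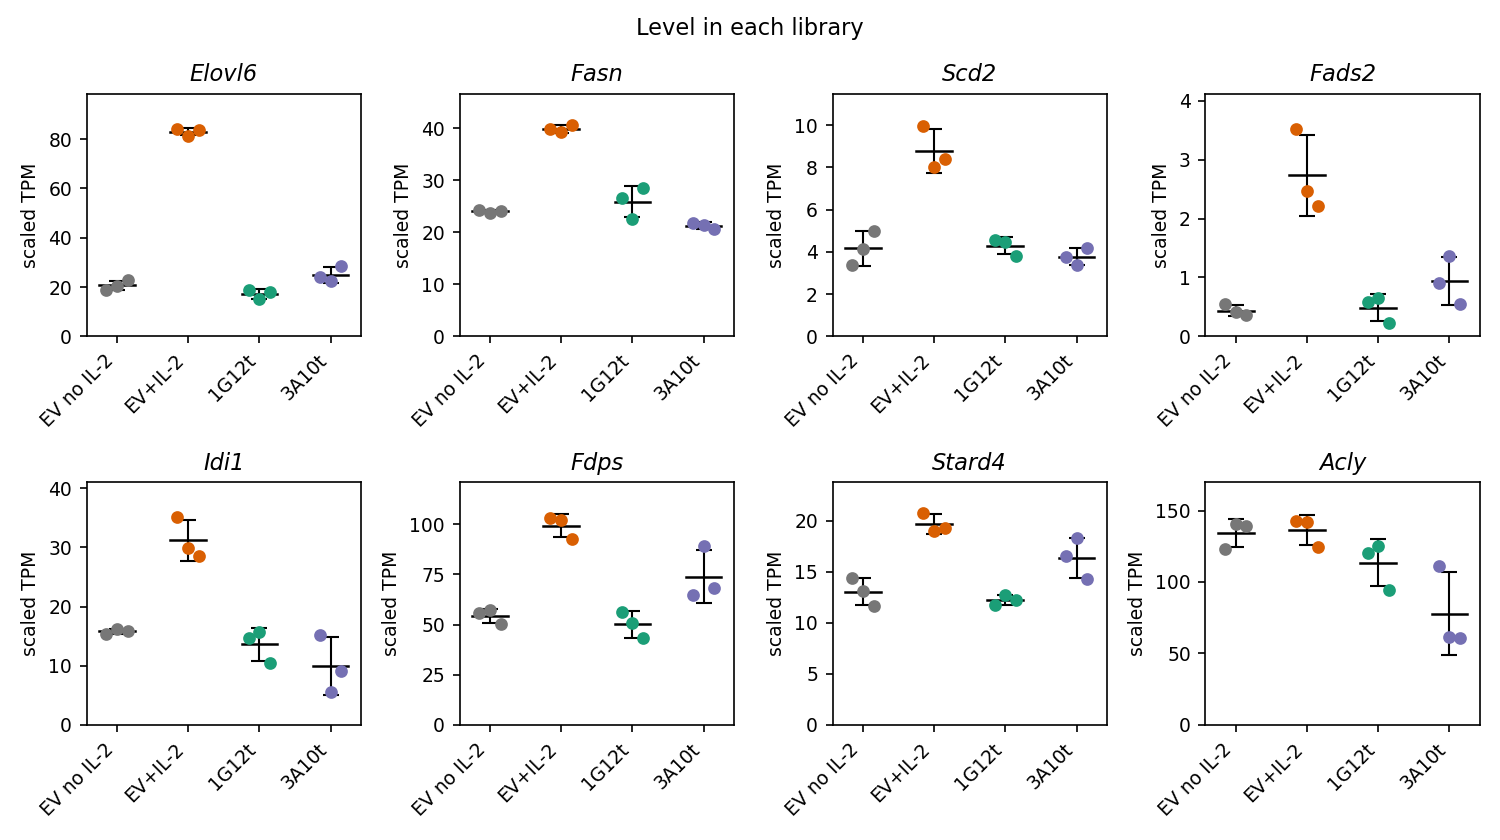
Scaled TPM (vertical axes, each from 0) of the 7 members called in EV+IL-2 against EV no IL-2 and of Acly, in the 4 groups along the horizontal axis. Points are libraries, long bars are means and whiskers are 1 SD of 3 libraries. Elovl6 is at 81.4 TPM or more in the EV+IL-2 libraries and at 28.5 TPM or less in the other 9, whereas Acly is lowest in 3A10t replicates 2 and 3.

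Idi1 isomerises isopentenyl diphosphate and Fdps joins such units to farnesyl diphosphate, the branch point of sterol and isoprenoid synthesis. Fdps was at 55.7, 57.1 and 50.2 TPM in EV no IL-2 and at 103, 102 and 92.7 TPM in EV+IL-2, a difference of 0.86 (SE 0.13, adjusted p = 0.00145 with limma). The levels of Idi1 were 15.3, 16.2 and 15.9 TPM without and 35.1, 30.0 and 28.5 TPM with IL-2, a difference of 0.93 (SE 0.26, adjusted p = 0.0405 with limma). Both genes were higher in each EV+IL-2 library than in any EV no IL-2 library. The call for Idi1 was lost without any 1 of the 6 libraries compared, with adjusted p-values of up to 0.142, although its difference stayed between 0.85 and 1.00. Gm43738 shares 26.7% of the annotated exon bases of Fdps on the same strand, so that reads of the pair could have been divided either way. Stard4, a carrier that moves cholesterol between membranes, was at 14.4, 13.1 and 11.7 TPM without IL-2 and at 20.8, 19.0 and 19.3 TPM with it, a difference of 0.56 (SE 0.10, adjusted p = 0.00433 with limma).

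The other enzymes from acetyl-CoA to squalene were not called. Mvd, which decarboxylates mevalonate diphosphate, was at 19.1 ± 1.09 TPM without and 26.2 ± 1.63 TPM with IL-2 (SD, n = 3), and Fdft1, which makes squalene, at 19.6 ± 1.45 and 25.1 ± 1.53 TPM. Neither gene had overlapping groups, yet the adjusted p was 0.078 for Mvd and 0.134 for Fdft1 with limma. Hmgcs1, the synthase that makes HMG-CoA and holds the sterol regulatory element shown above, was at 17.9, 20.4 and 17.7 TPM without and 24.8, 23.1 and 20.5 TPM with IL-2. Its groups were barely apart, and the difference of 0.28 had an interval of -0.22 to 0.77. Acat2, the thiolase that joins acetyl-CoA units, Mvk and Pmvk, the kinases of mevalonate, had means of 49.9, 5.70 and 15.7 TPM without IL-2 and 52.7, 7.26 and 13.5 TPM with it. Each of the 3 overlapped between the groups, and Pmvk had the lowest difference of the members, -0.19.

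From squalene to cholesterol, 0 of 10 enzymes were called with limma, against 8.17% of all genes higher and 5.14% lower. Sqle, Cyp51 and Ebp, 3 of the 10, were higher at an unadjusted p under 0.05, against 13.8% of all genes. Cyp51, the lanosterol demethylase, was at 14.3 ± 0.372 TPM without and 21.4 ± 2.41 TPM with IL-2 (SD, n = 3). Sqle, the squalene epoxidase, was at 30.2 ± 3.01 and 43.6 ± 5.52 TPM, and Ebp, a sterol isomerase, at 104 ± 3.42 and 115 ± 1.82 TPM. In these 3 genes each EV+IL-2 library was above each EV no IL-2 library, as in 19.6% of all genes. The differences were 0.54 for Cyp51, 0.51 for Sqle and 0.15 for Ebp. Lss, Tm7sf2, Msmo1, Nsdhl, Hsd17b7, Sc5d and Dhcr7, which close the ring, reduce, demethylate and desaturate it, overlapped between the groups, with differences from -0.057 for Nsdhl to 0.16 for Msmo1.

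Among the regulators of the pathway other than the carrier Stard4, 0 of 4 were called with limma, against 8.17% of all genes higher and 5.14% lower. Scap was higher at an unadjusted p under 0.05, as were 13.8% of all genes. Srebf1 and Srebf2, which encode the SREBP factors, were at 91.8 ± 4.82 and 124 ± 13.5 TPM without and at 97.7 ± 3.32 and 143 ± 5.33 TPM with IL-2 (SD, n = 3). Srebf1 overlapped between the groups and Srebf2 did not, and neither was called. Scap, the escort of SREBP, was at 39.1 ± 1.13 TPM without and 46.7 ± 0.746 TPM with IL-2, a difference of 0.25 that was not called (adjusted p = 0.124 with limma). Insig1, which retains the Scap complex and is itself a known SREBP target, was at 41.7, 46.3 and 48.5 TPM without and 43.6, 42.2 and 40.0 TPM with IL-2, and its groups overlapped.

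**Figure D2:**
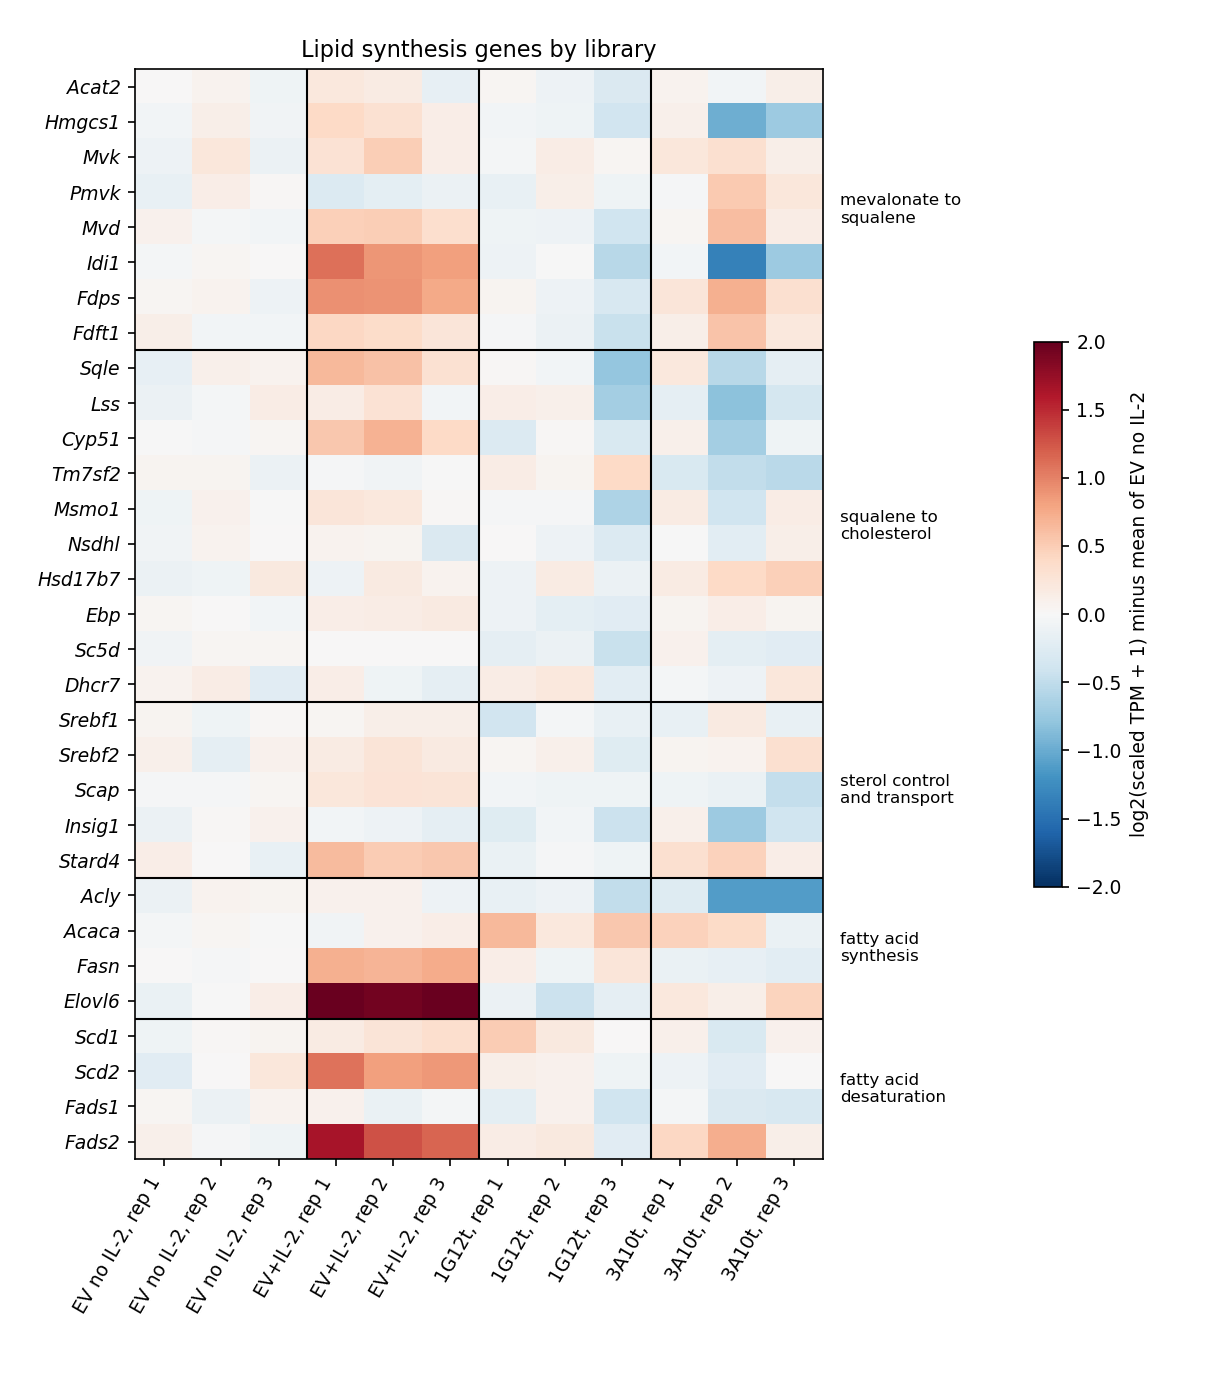
Difference of each library from the mean of EV no IL-2 on the log2(scaled TPM + 1) scale (colour, red above and blue below 0) for the 31 members, in rows grouped by role, and 12 libraries, in columns grouped by condition. The EV+IL-2 columns are red for Elovl6, Fads2, Scd2, Fasn, Idi1, Fdps and Stard4, and 3A10t replicates 2 and 3 are blue for Acly, Idi1 and Hmgcs1.

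Across the 30 members, 24 had a difference above 0 with IL-2 and the median was 0.18 (0.16 without Fads2), against a median of -0.014 and 45.9% above 0 for all genes tested. The groups did not overlap for 15 members (50%), each higher with IL-2, against 39.6% of all genes, 19.6% higher and 20% lower. In 12 members (40%) the 3 EV+IL-2 libraries stood above the other 9 libraries, against 9.51% of all genes, and in 0 members did they stand below, against 9.3%. Fads2, which the filter let in through its EV+IL-2 level, is counted among the 24, the 15 and the 12. When the fit held the 6 EV libraries alone, 13 members were called, the 7 above (Fads2 among them) with Mvd, Fdft1, Sqle, Cyp51, Ebp and Scap. The share of all genes called in that fit is not given here. Proliferation genes moved in the same comparison, with 10 of 10 cell cycle genes called higher at a median of 2.41, and Mki67, the proliferation marker, at 1.25 ± 0.0530 TPM without and 10.00 ± 1.45 TPM with IL-2 (SD, n = 3). The summed markers of B cells were at 8.42 to 10.0 TPM without and 10.3 to 12.8 TPM with IL-2, those of myeloid cells at 511 to 552 and 511 to 560 TPM, and those of CD8 T cells at 3.65 to 5.31 and 4.69 to 5.82 TPM. The part of these genes in the lipid result was not tested.

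The comparison of 3A10t with EV no IL-2 Tregs asked whether the tethered 3A10 moved these genes in the absence of IL-2. Of the 30 members, 0 were called with limma, against 2.05% of all genes (0.452% higher and 1.6% lower), and 9 had an unadjusted p under 0.05 (30%), against 26% of all genes. Several genes leaned apart without passing, with Fdps and Stard4 above and Acly, Tm7sf2, Idi1 and Hmgcs1 below EV no IL-2. At the authors' threshold 3 members passed (10%), Fdps higher, against 2.83% of all genes, and Acly and Tm7sf2 lower, against 6.67% (9.5% in either direction). The groups did not overlap for 10 members (33.3%), against 25.4% of all genes. Of the members 4 were higher (13.3%) and 6 lower (20%), against 13.3% and 12.1% of all genes. Over the members the median difference was -0.029, with 14 above 0, against 0.026 for all genes.

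Acly, the ATP citrate lyase that supplies cytosolic acetyl-CoA, was at 111, 61.4 and 60.8 TPM in 3A10t and at 123, 140 and 139 TPM in EV no IL-2. Its difference of -0.83 (SE 0.21) had an adjusted p of 0.0638 with limma, and the groups did not overlap, with replicate 1 near the EV libraries and the other replicates far below. Tm7sf2, a sterol reductase, was at 8.10, 7.02 and 6.78 TPM in 3A10t and 10.8, 10.8 and 9.37 TPM in EV no IL-2, a difference of -0.45 (adjusted p = 0.0579 with limma). Vps51 shares 12.1% of the exon bases of Tm7sf2 on the same strand. Fdps was at 64.6, 89.2 and 68.1 TPM in 3A10t, above its 3 EV no IL-2 libraries, with a difference of 0.43 (adjusted p = 0.0989 with limma). Hmgcs1 was at 20.0, 8.97 and 10.8 TPM and Idi1 at 15.2, 5.57 and 9.18 TPM in 3A10t, and in both genes replicate 1 lay at the level of EV no IL-2 while the others lay below it.

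Of the other genes called with soluble IL-2, Fads2 among them through the filter, 0 of 5 were called in 3A10t with limma. As 2.05% of all genes were called, a count of 0 of 5 is not a result about these genes. Elovl6 and Stard4 were higher at an unadjusted p under 0.05, as were 10.9% of all genes. Elovl6 was at 23.9, 22.3 and 28.5 TPM, with a difference of 0.26 (interval 0.0088 to 0.51, adjusted p = 0.181 with limma), and one library lay within the range of EV no IL-2. Fasn was at 21.8, 21.3 and 20.6 TPM, a difference of -0.17 with an interval of -0.35 to 0.018, and none of its 3 libraries reached the lowest EV no IL-2 library. For Scd2 the levels were 3.77, 3.38 and 4.17 TPM, and for Fads2 0.907, 1.37 and 0.556 TPM, against at most 0.546 TPM in EV no IL-2. Stard4 was at 16.5, 18.3 and 14.3 TPM, with 1 library inside the range of EV no IL-2. Srebf1, at 89.7 ± 12.6 TPM, and Srebf2, at 138 ± 14.6 TPM (SD, n = 3), overlapped with EV no IL-2.

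**Figure D3:**
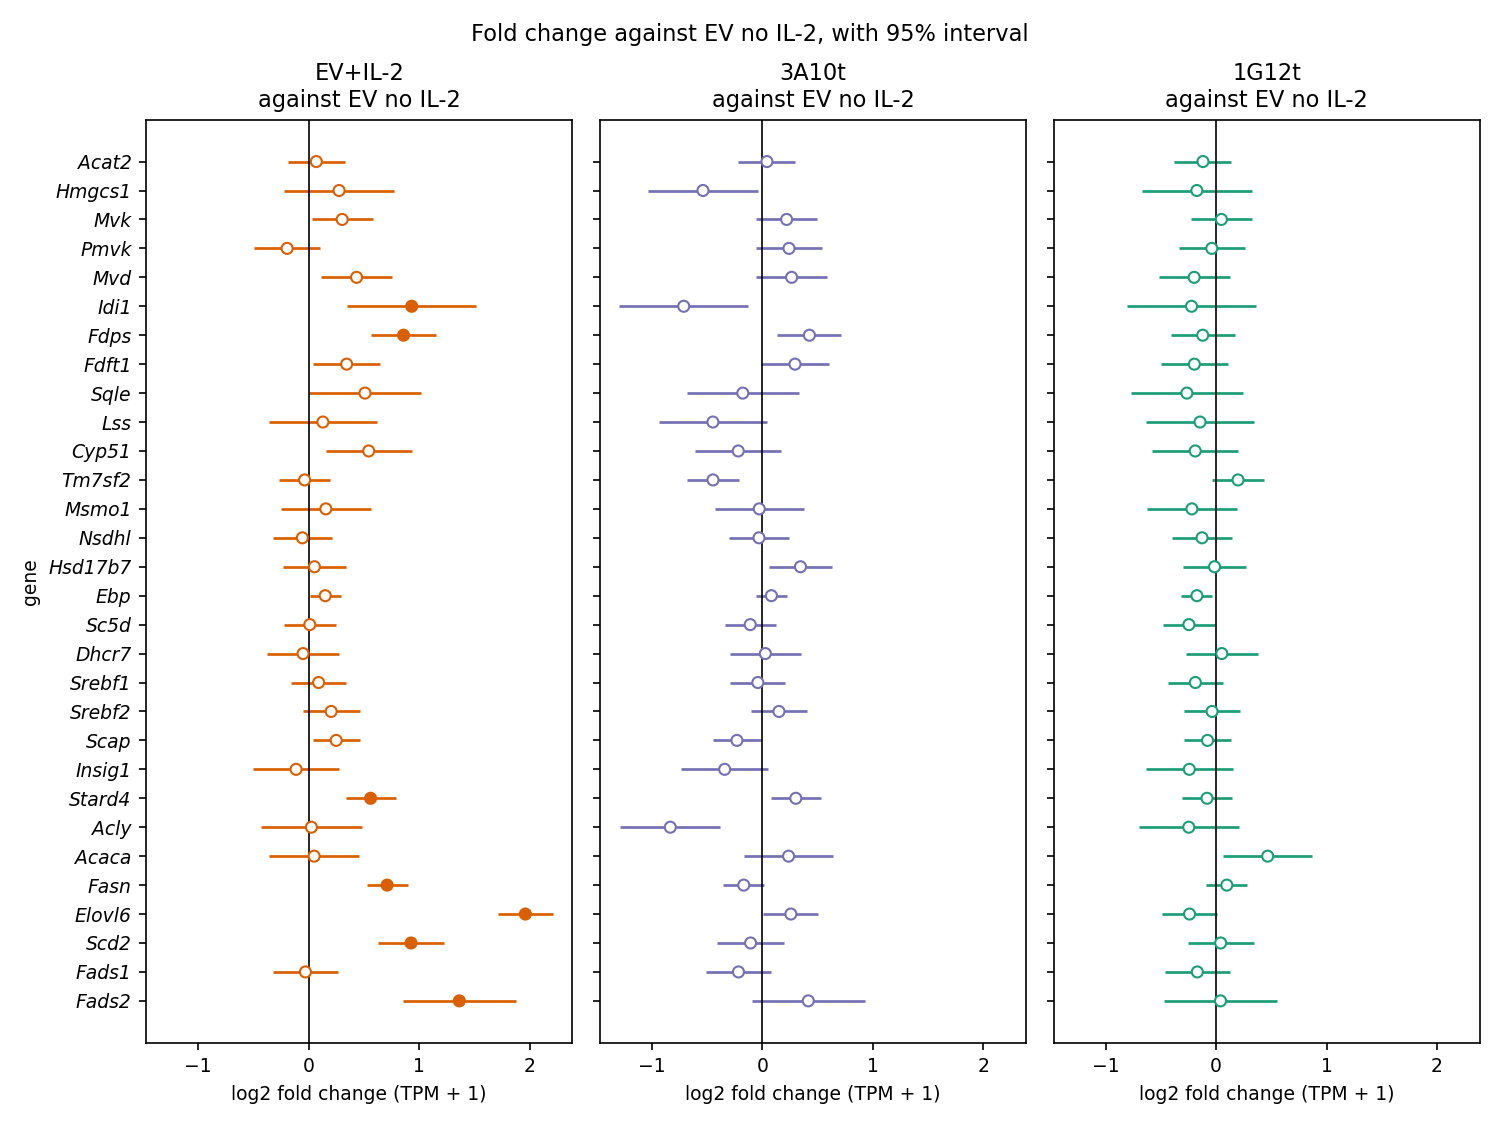
Log2 fold change (horizontal axis, log2(TPM + 1) scale), with EV no IL-2 as the reference, for the 30 members tested (rows), in EV+IL-2, 3A10t and 1G12t Tregs. Points are limma estimates, lines are 95% intervals, and filled points are genes called at an adjusted p under 0.05, which are 7 in EV+IL-2 and 0 in 3A10t and 1G12t.

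The 3A10t result rested on which cultures were included. Without 3A10t replicate 1, 8 members were called, Fdps and Hsd17b7 higher and Hmgcs1, Idi1, Tm7sf2, Scap, Insig1 and Acly lower, with adjusted p-values of 0.000415 for Acly and 0.00951 for Tm7sf2 with limma. The share of all genes called in that fit is not given here, and genes of the related lipid lists below were called in it too. Replicate 2 was the lowest of the 12 libraries for 5 members and the highest for 4, and over all genes it was the lowest for 21.4% and the highest for 24.5%. Summed B cell markers were at 11.4 to 16.2 TPM in 3A10t, against 8.42 to 10.0 TPM in EV no IL-2, with Cd79b at 9.00 to 13.4 TPM and Ms4a1 at 0.363 to 0.556 TPM. Summed myeloid markers were at 545 to 772 TPM against 511 to 552 TPM, nearly all of it Cst3, with the 4 other myeloid markers at or near 1 TPM or below. Summed CD8 T cell markers were at 4.30 to 6.57 TPM against 3.65 to 5.31 TPM. The part of these markers in the 3A10t values was not tested.

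Transcript length moved with the same comparison. Over all genes with a length, the median difference of 3A10t from EV no IL-2 was 0.19 among the shortest, up to 1230 bases, and -0.13 among the longest, from 4235 bases. Among the members the median was 0.027 for the 15 shorter and -0.11 for the 15 longer genes. Acly, with a longest transcript of 4426 bases, and Idi1, with 3027, lay far below the genes of their length, and Fdps, with 2953, lay above them. After a correction for length by lowess, Acly was at -0.66, Tm7sf2 at -0.36 and Fdps at 0.50 relative to EV no IL-2, none of them called, and the median of the members was 0.052.

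**Figure D4:**
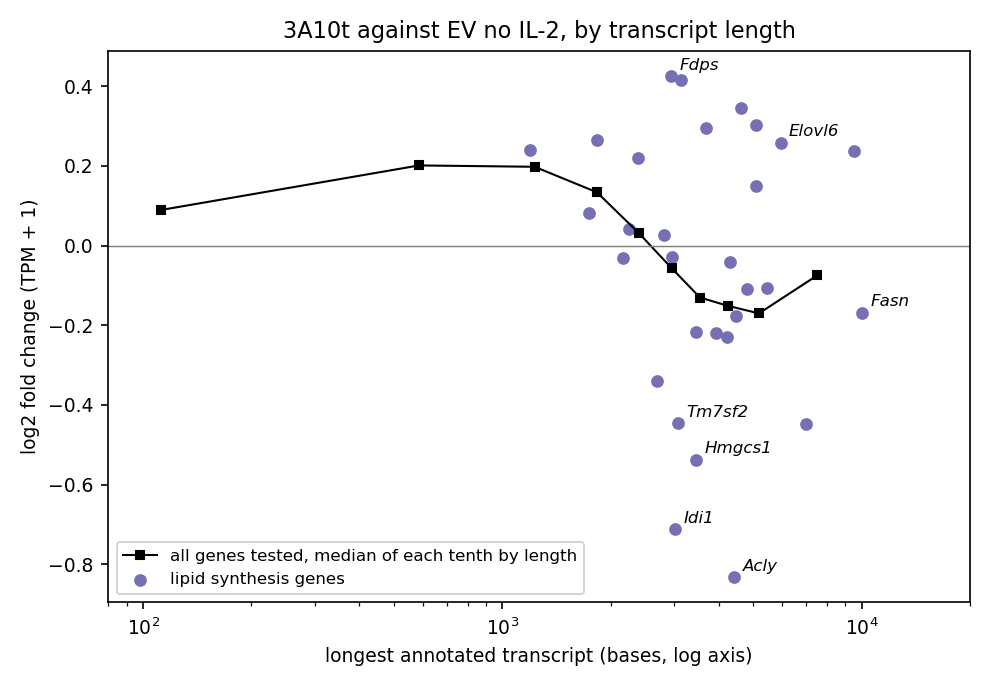
Log2 fold change of 3A10t against EV no IL-2 (vertical axis, log2(TPM + 1) scale) by the length of the longest annotated transcript (horizontal axis, bases, log scale). Circles are the 30 members and the line joins the medians of all genes tested in 10 bins by length, which fall from 0.20 at 586 bases to -0.17 at 5177 bases, with 0.089 in the shortest bin and -0.075 in the longest. Acly at -0.83 and Idi1 at -0.71 are the lowest circles.

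The comparison of 1G12t with EV no IL-2 Tregs asked the same of the tethered 1G12. By limma, 0 of 30 members were called, against 0.0199% of all genes (0.0133% higher and 0.00665% lower), 0 passed the authors' threshold, against 1.36% (1.13% higher and 0.226% lower), and 3 had an unadjusted p under 0.05, against 7.04%. These were Acaca above, against 5.32% of all genes, and Ebp and Sc5d below, against 1.72%. The groups did not overlap for 5 members (16.7%), against 16.5% of all genes, with 1 higher and 4 lower, against 8.68% and 7.8%. Elovl6 was at 18.8, 15.1 and 18.1 TPM, Fasn at 26.5, 22.6 and 28.4 TPM and Fdps at 56.4, 50.6 and 43.3 TPM, and each overlapped with EV no IL-2. Acaca, the acetyl-CoA carboxylase, was at 3.37, 2.20 and 3.05 TPM, above the 1.71 to 1.86 TPM of EV no IL-2, with a difference of 0.47 and an adjusted p of 0.703.

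Of the 30 members, 23 had a difference below 0 and the median was -0.14, against -0.0038 for all genes. One library held much of this. 1G12t replicate 3 was the lowest of the 12 libraries for 11 members, against 12.5% of all genes, among them Sqle at 17.3 TPM, where the other 1G12t libraries had 30.7 and 29.1 TPM, and Msmo1 at 33.0 TPM against 50.7 and 50.7 TPM. Without it the median of the members was -0.042.

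The tethers were then compared with each other. In 3A10t, 2 members were higher than in 1G12t, Fdps by 0.55 (SE 0.13, adjusted p = 0.0466) and Elovl6 by 0.50 (SE 0.11, adjusted p = 0.0423), and 1 was lower, Tm7sf2 at -0.65 (SE 0.10, adjusted p = 0.0198 with limma). The 3 calls are 10% of the members, against 4.27% of all genes, 1.3% higher and 2.96% lower, and the median over the members was 0.12. At the authors' threshold 6 were higher and 2 lower, against 5.28% and 7.06%, and 10 had an unadjusted p under 0.05, against 29.7%. In these 3 genes the 3A10t libraries did not overlap with those of 1G12t, where Elovl6 reached 18.8 TPM and Fdps 56.4 TPM at most and Tm7sf2 was at 10.8 TPM or more. With the replicate number as a block, Stard4 was also higher in 3A10t (0.39, adjusted p = 0.0476 with the block and 0.0551 without). The count moved between 0 and 13 as libraries were left out. It was 0 without 1G12t replicate 3 or 3A10t replicates 2 or 3, 1 (Tm7sf2) without 1G12t replicates 1 or 2, 13 without 3A10t replicate 1, and 0 when the fit held these 6 libraries alone. The share of all genes called in each of these fits is not given here.

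Set against EV+IL-2, fewer than 15 of the 30 members were called lower in either tether, among them Elovl6, Idi1, Scd2 and Fasn in each. These comparisons share the EV+IL-2 libraries with the first, so each is given by its own values. In 3A10t, 11 members were lower and 1 higher (40% in all), against 13% and 10.3% of all genes. In 1G12t, 13 were lower and 0 higher (43.3%), against 10.9% and 9.7%. By an unadjusted p under 0.05, Acaca and Tm7sf2 were higher in 1G12t (6.67% of members), against 16.9% of all genes. By the same measure Hsd17b7 and Pmvk were higher in 3A10t (6.67%), against 17%. Elovl6 was lower by the widest margin, -1.70 in 3A10t (SE 0.11, adjusted p = 1.03e-05) and -2.20 in 1G12t (SE 0.11, adjusted p = 2.26e-06 with limma). Idi1 was at -1.64 and -1.16, Scd2 at -1.03 and -0.89, Fads2 at -0.95 and -1.32, Fasn at -0.88 and -0.61, Cyp51 at -0.76 and -0.73, Fdps at -0.43 and -0.98 and Scap at -0.48 and -0.33 in 3A10t and 1G12t, all called in each, with Fads2 again tested through its EV+IL-2 level. Without Fads2, 10 members were lower in 3A10t and 12 in 1G12t. The call for Fdps in 3A10t and that for Scap in 1G12t were each lost in 8 of 17 alternatives, with adjusted p-values of up to 0.125 and 0.153. A pseudocount of 0.1 gave -1.49 and -2.33 for Fads2, and a pseudocount of 5 gave -0.38 and -0.49 for Fads2 and -0.65 and -0.57 for Scd2.

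The other calls differed by tether. Acly (-0.86), Hmgcs1 (-0.81) and Tm7sf2 (-0.41) were called lower and Pmvk (0.44) higher in 3A10t, and Sqle (-0.77), Stard4 (-0.64), Mvd (-0.63), Fdft1 (-0.54) and Ebp (-0.32) were called lower in 1G12t. In 3A10t the call was lost in 8 of 17 alternatives for Pmvk (adjusted p up to 0.131 with limma), 6 for Tm7sf2, 5 for Hmgcs1 and 4 for Acly. In 1G12t it was lost in 6 for Sqle, 3 for Fdft1 and 0 for Stard4, Mvd and Ebp. Of these 9 genes, Tm7sf2 was the one for which the difference between the tethers itself was called, with Stard4 joining it under the replicate block. The 12 calls in 3A10t fell to 5 (Idi1, Fasn, Elovl6, Scd2 and Fads2) with these 6 libraries alone, to 6 without EV+IL-2 replicate 1 and to 7 without 3A10t replicate 3, and the 13 in 1G12t were 9 to 12 as libraries were left out. Cell cycle genes were again called in the same comparisons, 10 of 10 lower in each tether, at medians of -2.11 and -2.27, and their part was not tested.

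Neighbouring lipid genes were counted from 4 lists. Among 13 sterol control and isoprenoid branch genes, Fntb, the beta subunit of farnesyltransferase (0.41, adjusted p = 0.0238), and Pdss1, which builds the side chain of ubiquinone (0.38, adjusted p = 0.0466 with limma), were higher in EV+IL-2 than in EV no IL-2, and the call for Pdss1 was lost with the replicate block (adjusted p = 0.0647) and in 14 of 17 alternatives in all (adjusted p up to 0.151). Of 11 tested sterol efflux, esterification and transport genes, 2 were higher. Soat1, which esterifies cholesterol for storage, was at 26.9 ± 1.52 TPM without and 53.4 ± 3.82 TPM with IL-2 (SD, n = 3), a difference of 0.96 (SE 0.18, adjusted p = 0.00447 with limma). Abcg1, a cholesterol exporter, rose by 0.30 (adjusted p = 0.023). Of 16 tested fatty acid supply, elongation and activation genes, Lpin1, a phosphatidate phosphatase (0.71, adjusted p = 0.0106), and Mid1ip1, an activator of acetyl-CoA carboxylase (0.30, adjusted p = 0.0277), were higher. Acss2, which makes acetyl-CoA from acetate, was lower, at 13.1 ± 1.23 TPM without and 6.79 ± 0.321 TPM with IL-2, a difference of -0.85 (SE 0.13, adjusted p = 0.00159 with limma). Among 17 fatty acid oxidation genes 1 was higher, Acadl, the long-chain dehydrogenase (0.47, adjusted p = 0.0254 with limma). The share of all genes higher was 8.17%, as above. Soat1, Lpin1 and Acss2 were called in each of 17 alternatives, whereas Abcg1 lost its call in 8 and Fntb, Mid1ip1 and Acadl in 7 each. As each of the 6 libraries was left out in turn, the lists in the order above had 0 to 1, 1 to 2, 2 to 3 and 0 to 1 genes called.

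In 3A10t against EV no IL-2, 0 genes of the 4 lipid lists were called with limma, and 3, 3, 6 and 3 genes in the order above had an unadjusted p under 0.05, of 13, 11, 16 and 17 tested, against 26% of all genes. Without 3A10t replicate 1, 2, 4, 8 and 3 genes were called, and the share of all genes called in that fit is not given here. In 1G12t, 0 genes of these lists were called with limma and 0 had an unadjusted p under 0.05, against 7.04% of all genes. Between the tethers 0 were called with limma, against 4.27% of all genes, with 3, 5, 7 and 4 at an unadjusted p under 0.05, against 29.7%. Without 3A10t replicate 1 the counts were 2, 4, 8 and 4, again without a share of all genes to set beside them. With the block 3 genes were called, Osbp lower (-0.83) and Elovl1 (0.44) and Acaa2 (0.44) higher in 3A10t. Against EV+IL-2, Soat1 was at -1.22 in 3A10t and -1.30 in 1G12t, Lpin1 at -1.04 and -0.80, and Acss2 at 0.56 and 0.83, each called. Cell cycle genes were at a median of 0.47 in 3A10t and 0.072 in 1G12t against EV no IL-2, with Top2a, a topoisomerase, called higher in 3A10t (0.52, adjusted p = 0.0329 with limma) and Mki67 not (0.15).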

How the data were processed

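RNA was measured in 12 libraries of sorted mouse Tregs, 3 for each of the 4 groups in the labels. The deposited values are TPM. Per the labels and the study's methods, the authors made oligo-dT primed full-length cDNA, amplified it for 15 cycles, fragmented and amplified it for 9, read 50-bp pairs, trimmed them with Cutadapt 1.18, aligned them to mm10 with STAR 2.5.3 and estimated expression with RSEM 1.3.0. DESeq2 1.26, which the authors ran on counts, was not used here. The read depth cannot be had from TPM, and counting errors are therefore left out. Whether reads were counted by strand is not given in the sources used here.

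TPM were divided by median-of-ratios factors per library. Genes averaging 1 TPM or more (15043) were tested with limma 3.58.1 in R 4.3.3, using lmFit and a trended eBayes, on log2 of the scaled TPM plus 1, with all 12 libraries, 4 group means and no block, in 6 comparisons, each adjusted over all genes. The code was tested on simulated data. Alternatives were pseudocounts of 0.1 and 5, TPM as deposited, no filter or a filter at 5 TPM, quantile normalization, the replicate block, eBayes without a trend, the 6 libraries compared alone, the authors' threshold and each library left out, for the related lists too, apart from the authors' threshold. A lowess correction for transcript length (span 0.3), alone and with the block, was added after the data were seen. Figures used Python 3.11.15 and matplotlib 3.10.9. Lengths and overlaps come from GENCODE M21 on GRCm38, in which 53569 symbols were found, and promoter windows from RefSeq (GRCm38.p6).

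The replicate number marks a shared sort by the labels and so pairs the libraries. Deviations from the group means correlated at 0.041 on average over 18 pairs with the same number (-0.11 to 0.15, 3 pairs over 0.1) and at -0.020 over other pairs. The blocked value is given where it changes a call.

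The members and lists were chosen with earlier results of these data known. All 31 members are named, statistics are given for those called or compared, and at most 3 called genes per related list and comparison are named, with some of those whose call the block changed. One gene of the related lists is not reported here. Marker sums were taken over Cd8a with Cd8b1 (CD8 T cells), over Ms4a1, Cd79a and Cd79b (B cells) and over Csf1r, Cst3, Lyz2, S100a9 and S100a8 (myeloid cells).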

Additional observations from a re-analysis of the deposited data

How the results depend on the processing

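The number of members called and their median difference were recomputed under each alternative. The share of all genes called under each alternative is not given, so a changed count is not a result about the members alone. For EV+IL-2 against EV no IL-2, 13 members were called with the 6 libraries alone and 6 each time a library was left out, and the median was 0.12 with TPM as deposited. For 3A10t against EV no IL-2 the count was 3 at the authors' threshold, 1 with a mean TPM of at least 5, 2 with TPM as deposited and 0 to 8 as libraries were left out. Its median of -0.029 became -0.17 with TPM as deposited, 0.053 with quantile normalization, 0.052 with the length correction, with or without the block, and -0.061 to 0.054 as libraries were left out. For 3A10t against 1G12t the count was 8 at the authors' threshold, 6 with a mean TPM of at least 5, 1 with no filter or without a trend, 0 with the 6 libraries alone and 0 to 13 as libraries were left out, and the median was -0.070 with TPM as deposited. For 3A10t against EV+IL-2 the count was 5 with the 6 libraries alone and 6 to 13 as libraries were left out, and the median was -0.090 with quantile normalization and -0.30 to -0.19 as libraries were left out. The median of 1G12t against EV+IL-2 was -0.20 with TPM as deposited, and that of 1G12t against EV no IL-2 was -0.17 to -0.042 as libraries were left out. In 1G12t against EV no IL-2, where neither gene was called, Fads2 changed sign under quantile normalization (-0.16) and when EV no IL-2 replicate 3 or 1G12t replicate 1 or 2 was left out (-0.039 to 0.17 over the 6 libraries), and Fasn with the length correction (-0.081, with and without the block). The causes were not tested. With the replicate block the counts of members called were 7, 0, 0, 4, 12 and 13 in the 6 comparisons, and Stard4 between the tethers was the one member whose call it changed. Of 1422 alternatives for 84 gene results, 1194 kept the direction and the call, 201 lost the call, 21 gained it and 6 changed sign. TPM without read counts limit what can be said of genes near 1 TPM, such as Fads2 and Scd1.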
